A study of Mus musculus with 4 samples.

Results

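Small nucleolar RNAs (snoRNAs) are short nuclear RNAs, and 177 of the 1508 genes annotated as snoRNA in a table of 49548 mouse genes are described here. They were chosen by their measured level: the normalised counts of a snoRNA gene had to average 10 or more across 4 libraries. Of the other snoRNA genes, 1072 were at 0 in every library and 259 were above 0 with a mean under 10. By symbol, 47 of the 177 were of the C/D type (Snord genes), 30 were of the H/ACA type (Snora genes) and 100 had neither symbol, 89 of these with a Gm number in place of a name. The nearest genes inside the limit were Gm24920 and Gm23346, each with a mean of 10.25, and the nearest outside were Gm22455 with 9.75 and Gm22884 with 9.25.

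The libraries came from Neuro2A, a mouse neuroblastoma line that grows as loosely adherent neuron-like cells. A stable line with a doxycycline-inducible (Tet-On) Prox1 transgene gave 2 libraries and a stable line with a Tet-On GFP transgene gave the other 2. Prox1 is a homeodomain transcription factor, and GFP served as the control protein. Both lines were kept under G418 and hygromycin selection, and both were given doxycycline at 1 µg/mL, so antibiotic and inducer were shared by all 4 libraries. Because the Prox1 and GFP transgenes sat in different lines, the line and its transgene cannot be told apart. Total RNA with an integrity number above 7 was made into libraries with a QuantSeq 3′ kit, which primes on poly(A) tails and reads the ends of polyadenylated transcripts, and was sequenced on an Ion Proton. Nothing in the labels says that replicates came from separate cultures, so every p-value measures the spread between these libraries only. Fewer cells with an RNA and less of it per cell cannot be told apart in such bulk samples.

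A C/D snoRNA carries a C box near its 5′ end and a D box near its 3′ end, assembles with fibrillarin, and guides 2′-O-methylation of ribosomal RNA. An H/ACA snoRNA folds into hairpins, ends with an ACA triplet, assembles with dyskerin, and guides the conversion of uridine to pseudouridine. In mammals most of both types are cut out of the introns of a host gene after splicing and carry no poly(A) tail. Many hosts encode ribosomal proteins or translation factors. Others, such as Gas5, Zfas1 and the Snhg genes, make a spliced RNA that encodes no known essential protein. A few snoRNAs, U3 and U8 among them, have promoters of their own.

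The C/D sequences below belong to members that fell in 5 noncoding hosts, and to the C/D member with the highest counts, Snord100. They are GENCODE M21 sequences on GRCm38 (mm10), read 5′ to 3′ on the strand of the gene. Capitals mark the motif TGATGA of the C box and the motif CTGA of the D box.
Snord50a: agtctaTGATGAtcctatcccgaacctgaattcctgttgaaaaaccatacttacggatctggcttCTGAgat
Snord50b: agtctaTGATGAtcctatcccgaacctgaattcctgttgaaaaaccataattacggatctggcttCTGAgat
Snord65: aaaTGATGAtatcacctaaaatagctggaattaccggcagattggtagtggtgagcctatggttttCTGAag
Snord12: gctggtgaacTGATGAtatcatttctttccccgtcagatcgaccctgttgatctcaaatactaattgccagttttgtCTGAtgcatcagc
Snord99: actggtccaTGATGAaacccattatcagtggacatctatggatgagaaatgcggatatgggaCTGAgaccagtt
Snord47: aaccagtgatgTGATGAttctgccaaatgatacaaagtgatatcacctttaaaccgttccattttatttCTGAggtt
Snord80: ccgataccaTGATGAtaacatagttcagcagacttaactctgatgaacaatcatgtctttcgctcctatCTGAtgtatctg
Snord100: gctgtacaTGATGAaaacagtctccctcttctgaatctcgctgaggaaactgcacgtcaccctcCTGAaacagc

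The H/ACA sequences are those of Snora61 and Snora24, which fell, and of Snora33, the H/ACA member with the highest counts. Capitals mark the ACA that lies 3 bases before the end.
Snora61: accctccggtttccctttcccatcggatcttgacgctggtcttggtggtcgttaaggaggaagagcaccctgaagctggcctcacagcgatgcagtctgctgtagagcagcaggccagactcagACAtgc
Snora24: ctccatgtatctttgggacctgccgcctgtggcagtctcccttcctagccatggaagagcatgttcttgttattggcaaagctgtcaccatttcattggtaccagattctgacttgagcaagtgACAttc
Snora33: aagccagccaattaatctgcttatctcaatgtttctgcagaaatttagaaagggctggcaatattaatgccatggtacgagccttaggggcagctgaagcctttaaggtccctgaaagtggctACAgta

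The positions of these genes on mm10 are chr9:88521529-88521600 (minus strand) for Snord50a and chr9:88521797-88521868 (minus strand) for Snord50b, both in introns of Snhg5. Snord65 lies in an intron of 2410006H16Rik at chr11:62604515-62604586 (plus strand). Snord12 is intronic in Zfas1 at chr2:167065276-167065365 (plus strand). Snord80 and Snord47 sit in introns of Gas5 at chr1:161037601-161037681 and chr1:161038082-161038158 (plus strand). Snora61 at chr4:132310240-132310369 and Snord99 at chr4:132310691-132310764 (plus strand) are in Snhg12, where the position is exonic or intronic depending on the transcript. Snora24 is in an intron of Snhg8 at chr3:123507937-123508066 (minus strand). Snora33 at chr10:23785347-23785475 and Snord100 at chr10:23785750-23785823 (minus strand) are in introns of Rps12. Snord50a and Snord50b differ by 1 base, C50A, counted from the 5′ end with the base of Snord50a first.

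The sequence motifs separated the types as the symbols do. CTGA within the last 15 bases was present in 46 of the 47 C/D members and in 2 of the 30 H/ACA members, and TGATGA within the first 25 bases in 36 and 0. An ACA 3 bases before the end was present in 24 of the 30 H/ACA members and in 0 C/D members. In the 2202 microRNA genes of the table, searched likewise on the strand of the gene, the C box motif, the D box motif and the terminal ACA were found in 0.318%, 6.18% and 3.27%. Of the 100 members of neither symbol, 48 carried CTGA and 39 the ACA. A match of letters is a description of the annotated sequence, and whether matches of TGATGA and CTGA share bases was not checked.

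The highest snoRNA genes, Snord100 and Snora33, were both in the ribosomal protein gene Rps12. Snord100 had 25889 and 23501 normalised counts in Prox1 replicates 1 and 2 and 18326 and 22147 in GFP replicates 1 and 2. Snora33 had 25753 and 23387 against 18219 and 22020. For both, the Prox1 libraries were above the GFP libraries without reaching the threshold (log2 difference 0.29 ± 0.30 (SE) each, limma adjusted p = 0.546 and 0.544).

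Snora33 had exactly the count of its host Rps12, a protein of the small ribosomal subunit, in every library. Snord100 was within 5% of that count in every library. Reads of these snoRNAs and of the Rps12 transcript cannot be told apart. The other H/ACA members with the highest means were Snora41 in Eef1b2 (6300 and 5193 against 5951 and 7767), Snora75 in Ncl (5454 and 5732 against 8093 and 5926) and Snora31 in Tpt1 (5473 and 4808 against 5673 and 7838). None of these was called, with limma adjusted p from 0.332 to 0.542. Of the members of neither symbol, Gm23723 within Nup210l was the highest (17013 and 13776 against 16170 and 19565), and the pseudogene Gm43712 beside it had its values within 5%. Among C/D members, Snord22, Snord35a and Snord73a followed Snord100. Snord35a in Rpl13a had 5146 and 4526 against 4564 and 6486, and Snord73a in Rps3a1 had 3985 and 4056 against 4211 and 6154. Their groups overlapped for Snord35a and stood apart for Snord73a by less than the spread within the GFP group.

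**Figure D1:**
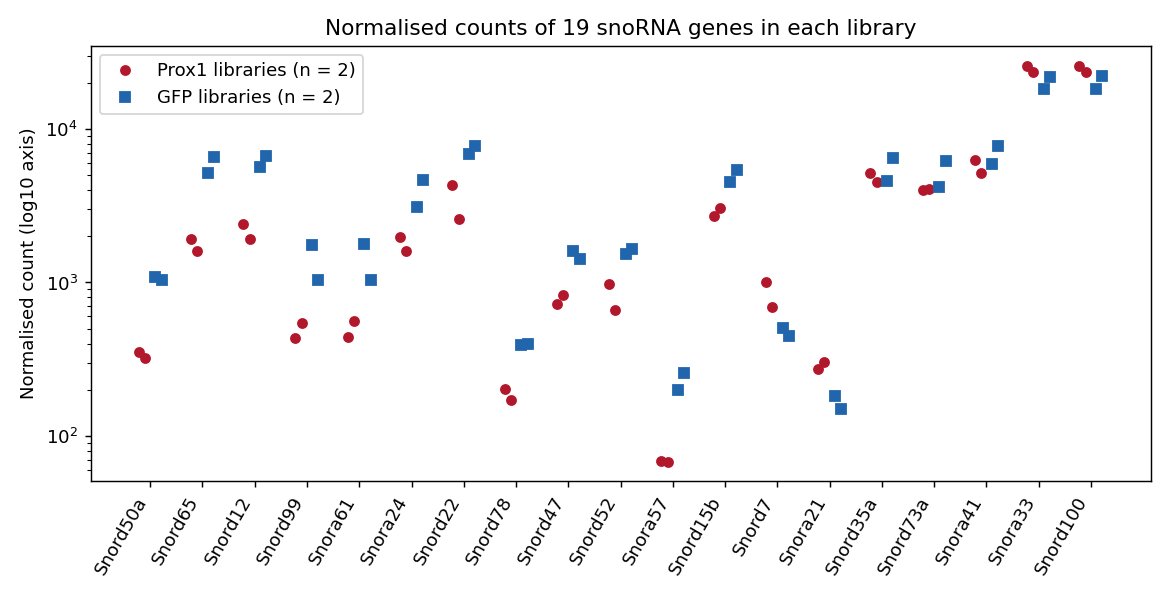
Normalised counts (log10 axis) of 19 snoRNA genes, with a circle for each Prox1 library and a square for each GFP library. From Snord50a to Snord15b both Prox1 libraries lie below both GFP libraries, for Snord7 and Snora21 they lie above, and for Snord35a and Snora41 the groups overlap.

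The means of the 177 genes ran from 10.25 to 22466 normalised counts with a median of 149, and 47 were at 1000 or more while 63 were under 50. Summed, they held 3.19% and 2.98% of all counts with Prox1 and 3.35% and 3.72% with GFP. The means were 3.08 ± 0.15% and 3.54 ± 0.26% (SD, n = 2 each). The groups did not overlap (exact permutation test, two-sided, p = 0.333, the smallest that 2 against 2 can give), and the difference of -0.46 percentage points became -0.27 without GFP replicate 2. Members in noncoding hosts held 0.407% and 0.332% in the Prox1 libraries against 0.774% and 0.787% in the GFP libraries, again without overlap (exact p = 0.333). Those in ribosomal protein hosts held 2.09% and 2.03% against 1.89% and 2.22%, and their groups overlapped (exact p = 1).

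Across all 13290 genes tested with limma, 8.41% fell and 7.57% rose in the Prox1 libraries (16% called in either direction, Benjamini-Hochberg adjusted p under 0.05). Of the 177 snoRNA genes, 34 fell (19.2%) and 6 rose (3.39%). Their median log2 difference was -0.34, against -0.0017 for all genes tested. Groups did not overlap for 100 snoRNA genes (56.5%), near the 58.8% of all genes tested. There were 10 members under a mean of 10 in the Prox1 group alone and 6 in the GFP group alone. The place of these 16 among the 177 rested on the group in which they were higher. Of the 16, 3 were called, namely Gm23514 and Gm26447, which fell, and Gm25148, which rose. The median became -0.19 without Prox1 replicate 2. Without a mean-variance trend 16 members fell and 3 rose, and without a filter on low values 0 were called. With any 1 library left out, 0 genes of any kind passed the threshold in limma. Members with an unadjusted p under 0.05 then numbered 57 and 42 on leaving out Prox1 replicate 1 or 2, and 51 and 31 on leaving out GFP replicate 1 or 2.

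By type, 16 of the 47 C/D members fell and 1 rose, with a median log2 difference of -0.38. Of the 30 H/ACA members, 4 fell and 1 rose, with a median of -0.32. Of the 100 of neither symbol, 14 fell and 4 rose, with a median of -0.31. The share of all genes tested was 8.41% for falls and 7.57% for rises. The medians of the types lay within 0.1 of each other on the log2 scale, and no test of a difference between types was made. The H/ACA median was -0.13 without Prox1 replicate 2 and -0.63 without Prox1 replicate 1, and for members of neither symbol the median was -0.17 without Prox1 replicate 2.

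Types were spread unevenly over hosts. A host was the protein-coding or long noncoding gene that overlapped the snoRNA on its strand, and 152 members had one, in 83 distinct hosts. The 45 members in 19 noncoding hosts held 25 of the 34 falls and 1 of the 6 rises, with a median log2 difference of -1.09. The 46 members in 28 ribosomal protein genes held 1 fall and 1 rise, with a median of -0.03. The 61 members in 36 other coding genes held 2 falls and 2 rises, with a median of -0.19. The 25 members without a host held 6 falls and 2 rises, with a median of -0.53. Over all genes tested 8.41% fell and 7.57% rose, and the rises without a host were near that share. This grouping by class of host was chosen after the values had been seen.

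Within noncoding hosts, 13 of 17 C/D members, 3 of 8 H/ACA members and 9 of 20 others fell. With each set of equal values counted once, 11 of 15, 3 of 7 and 9 of 20 fell. Their median log2 differences were -1.01, -1.12 and -1.09, so the types differed in calls more than in size of change. Their median levels were 699.5, 77.25 and 108 normalised counts, and the part of level in the calls was not tested. Within ribosomal protein hosts, 1 of 20 C/D members fell and 0 of 10 H/ACA members did. So 13 of the 16 falling C/D genes were in noncoding hosts. In both Prox1 libraries 39 of the 45 members in noncoding hosts were below both GFP libraries, and 1 was above, where 58.8% of all genes tested did not overlap in either direction. These 45 members lie in 19 hosts and hold 40 distinct sets of values, so they are not independent of each other. In 13 of the 19 hosts every member was below both GFP libraries in both Prox1 libraries.

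**Figure D2:**
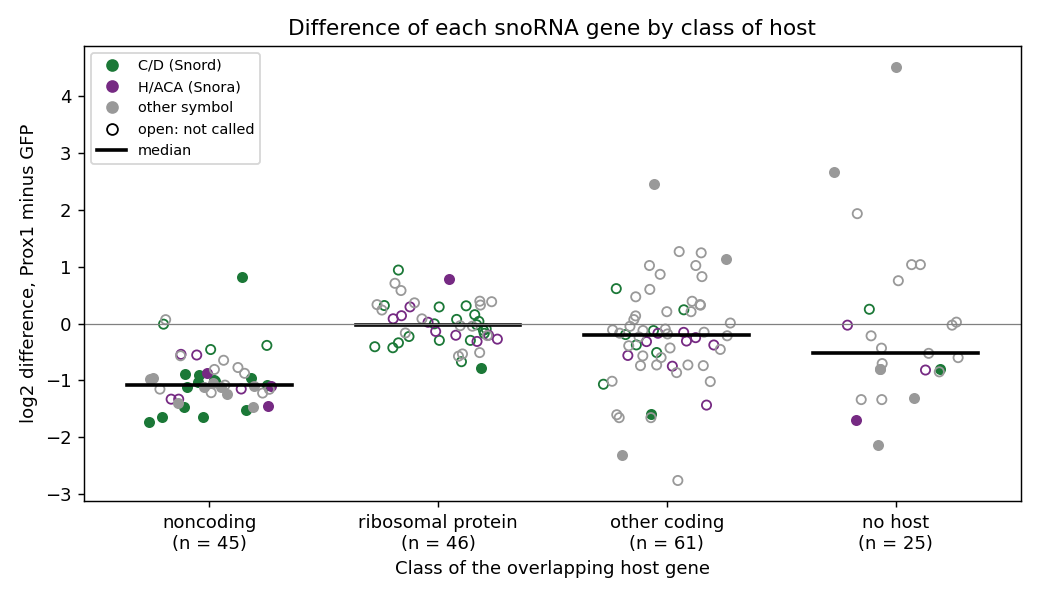
Log2 difference (Prox1 minus GFP) of each of the 177 snoRNA genes by class of host gene; colour gives the type, filled points were called and open points were not, and bars are medians. The 45 genes in noncoding hosts centre on -1.09 and the 46 in ribosomal protein hosts on -0.03.

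Snord50a and Snord50b, the pair in Snhg5 whose sequences are given above, had identical values. Each had 351 and 324 normalised counts with Prox1 against 1089 and 1034 with GFP. Both Prox1 libraries were far below both GFP libraries, 3.15-fold lower in the mean (log2 difference -1.65 ± 0.21 (SE), limma adjusted p = 0.000409). In human cells the 2 RNAs are known to bind K-Ras. The host Snhg5 had the same 4 values.

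Snord65, a C/D snoRNA in 2410006H16Rik, had 1928 and 1603 counts against 5161 and 6618. It was 3.34-fold lower in the Prox1 libraries (log2 difference -1.73 ± 0.23 (SE), limma adjusted p = 0.000608), and its host again had the same 4 values. Farther from the end of that host, Snord49a had 339 and 220 counts against 496 and 616, and Snord49b 339 and 224 against 506 and 623. Both fell by less than the host, to 0.503 and 0.499 of the GFP mean (limma adjusted p = 0.0169 and 0.0152), where the host was 3.34-fold lower.

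Zfas1, a noncoding RNA antisense to the start of Znfx1, holds 3 members, and all 3 fell. Snord12 had 2394 and 1929 counts against 5674 and 6692 and was 2.86-fold lower (log2 difference -1.52 ± 0.23 (SE), limma adjusted p = 0.00139), with the same values as Zfas1 itself. Gm23201 had 2511 and 2018 against 5737 and 6736. Gm25878, the member farthest from the end, had 71 and 55 against 152 and 182 and was 2.65-fold lower (limma adjusted p = 0.00638).

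In Snhg12, Snord99 (C/D) and Snora61 (H/ACA) fell together. Snord99 had 437 and 542 counts against 1752 and 1033, and Snora61 had 439 and 562 against 1769 and 1045. They were 2.85-fold and 2.81-fold lower (limma adjusted p = 0.00306 and 0.00324). The 2 GFP libraries differed from each other but both were above the Prox1 libraries. The other Snhg12 members, Snora44 (41 and 86 against 165 and 108, limma adjusted p = 0.0507) and Snora16a, listed under 2 annotations (11 and 30 against 58 and 39, limma adjusted p = 0.0852), did not pass.

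Gas5, a growth-arrest transcript whose spliced RNA is degraded during translation, holds 10 members, and 8 of them fell. Snord47 had 729 and 833 counts against 1605 and 1428 (log2 difference -0.96 ± 0.21 (SE), limma adjusted p = 0.00888). Snord78 had 202 and 171 against 393 and 399 (limma adjusted p = 0.007). Snord80, which guides 2′-O-methylation of the large ribosomal RNA, had 395 and 315 against 713 and 603 in the longer of its 2 annotations (limma adjusted p = 0.017).

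The other Gas5 members that fell were Gm25789, Mir5117, Gm23212, Gm22357 and the shorter Snord80 annotation, at 0.461 to 0.537 of the GFP mean. Gm26224 (27 and 20 against 41 and 40) and Gm22489 (27 and 20 against 41 and 42) did not pass, although both Prox1 libraries were below both GFP libraries. Gas5 itself was 2.02-fold lower (1399 and 1428 against 2922 and 2783, limma adjusted p = 0.00662).

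Snhg1, the host of U22, holds 8 members, all lower and 3 of them called. Snord22 (U22) had 4288 and 2598 counts against 6846 and 7733 (log2 difference -1.12 ± 0.27 (SE), limma adjusted p = 0.0146). Gm23246 had 4292 and 2602 against 6851 and 7742, and Gm22744 168 and 79 against 229 and 267. Prox1 replicate 2 was the lowest library for each of the 8, and the remaining 5 had limma adjusted p from 0.0568 to 0.168.

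Of 12 members alone in a noncoding host, 3 fell, 1 rose and 8 were not called, where 8.41% of all genes tested fell and 7.57% rose. Snora24 in Snhg8 guides pseudouridylation of ribosomal RNA and had 1974 and 1612 counts against 3102 and 4677 (2.17-fold lower, limma adjusted p = 0.0108). Snord52, which shares 1110038B12Rik with the uncalled Gm25744, had 972 and 661 against 1544 and 1658 (limma adjusted p = 0.0121). Gm23639 in Epb41l4aos had 698 and 618 against 1407 and 1737 (limma adjusted p = 0.00259). Snora74a in Snhg4 had 111 and 90 against 163 and 209 (limma adjusted p = 0.0427), although Snhg4 itself was not called. In each of these the Prox1 libraries lay below the GFP libraries.

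Snord7 in AA465934 was the member of a noncoding host that rose. It had 1012 and 692 counts in the Prox1 libraries against 505 and 445, a 1.79-fold ratio (log2 difference 0.82 ± 0.23 (SE), limma adjusted p = 0.0314). Its host had 1336 and 962 against 667 and 590 and rose too. Not every noncoding host shifted. Snord60 in Rab26os had 149 and 135 counts against 140 and 146, and Snord87 in Snhg6 had 3034 and 2125 against 3549 and 3430 (limma adjusted p = 0.206).

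Of the 18 noncoding hosts that were tested, 10 fell and 1 rose, against 8.41% and 7.57% of all genes tested, and 17 were lower in the Prox1 group. The authors' deposited table calls 4.62% of its 11933 genes with an adjusted p (551 genes under 0.05), and 16 noncoding hosts are among the 11933. Of these, 5 fell under 0.05 in the authors' deposited table, namely Snhg5 (0.00281), 2410006H16Rik (0.00798), Snhg12 (0.0167), Zfas1 (0.031) and Epb41l4aos (0.0426). For Gas5 and Snhg1 the authors' deposited table gives 0.195 and 0.389. No snoRNA gene has an adjusted p in the authors' deposited table. Of the 28 ribosomal protein hosts, Rps2 fell and none rose, and the median was -0.11.

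The snoRNA genes that fell outside noncoding hosts were few. Snord82 in Ncl, the nucleolin gene, had 111 and 43 counts against 203 and 220 and was 2.75-fold lower (log2 difference -1.60 ± 0.37 (SE), limma adjusted p = 0.0124). Ncl itself had a log2 difference of -0.34 and was not called. Snord15b in Rps3 had 2724 and 3041 against 4541 and 5397, 1.72-fold lower (limma adjusted p = 0.0342), with Rps3 at -0.77 and not called. Gm26447 in Eif4a2 had 5 and 2 against 31 and 13 (limma adjusted p = 0.044), and Eif4a2 fell. Gm26447 reached the level limit only through its GFP libraries.

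Snora57, without an overlapping host, had 69 and 68 counts against 199 and 256 and was 3.32-fold lower (log2 difference -1.71 ± 0.27 (SE), limma adjusted p = 0.00153). Within 1000 bases of it the microRNA gene Mir5136 had the same values within 5%. Snord104 had 182 and 145 against 276 and 290, and its neighbour Gm22711, listed under 2 annotations, 182 and 147 against 277 and 295 (limma adjusted p = 0.0393 and 0.0374). Gm23514 (5 and 4 against 18 and 30) and Gm24253 (33 and 36 against 66 and 116) fell as well, and the pseudogene Gm12240, within 1000 bases of Gm24253, had its values within 5%. Gm23514 reached the level limit only through its GFP libraries.

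The rises were few and 5 of the 6 were outside noncoding hosts. Gm23299 had 707 and 468 counts in the Prox1 libraries against 98 and 82, a 6.53-fold ratio (log2 difference 2.67 ± 0.26 (SE), limma adjusted p = 8.27e-05). The long noncoding gene RP24-365B9.2 had the same values within 5%. Gm27619 in Cep85 had 61 and 58 against 11 and 9 (5.95-fold, limma adjusted p = 0.00296). Gm25148 had 58 and 53 against 5 and 0 (limma adjusted p = 0.00267), and a GFP library at 0 leaves the size of that rise poorly set. Gm25148 reached the level limit only through its Prox1 libraries.

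Gm22027 in Sf3b4 had 330 and 330 against 174 and 130 (2.17-fold, limma adjusted p = 0.00842). Snora21 in Rpl23 had 274 and 301 against 183 and 150 (1.73-fold, limma adjusted p = 0.0395), and was the single H/ACA member to rise. Among the members that did not pass, the difference farthest from 0 was that of Gm22748 in Odc1 (11 and 0 against 36 and 14, limma adjusted p = 0.0773). Gm22748 reached the level limit only through its GFP libraries, and a Prox1 library at 0 leaves the size of its difference poorly set.

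The snoRNAs with promoters of their own were low in these libraries. U3, listed as 2 annotations of Rnu3a, had 9 and 7 counts against 18 and 26 (limma adjusted p = 0.118). Both Rnu3a annotations reached the level limit only through their GFP libraries. The 4 annotations of Rnu3b2 and Rnu3b4 had means from 10.75 to 13.75. U8 (Snord118), needed for maturation of the large subunit RNAs, had 16 and 29 against 19 and 17 (limma adjusted p = 0.767). The U3 copies near Tex14 were counted among the 61 members in other coding hosts because that gene spans them.

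The count of a snoRNA gene followed its distance from the 3′ end of the host. Of 47 members at most 1000 bases from that end, 21 had the host's count or 0.50 of it within 5% in every library, and the median member was at 92.3% of the host's count. Among 72 members at 1000 to 5000 bases, 2 did so and the median was 10.1%. Among 33 members beyond 5000 bases none did, and the median was 9.31%. That median includes members whose host has a mean under 10, as only 27 of the 33 have a host at 10 or more. These are ratios of counts not divided by length. Over all members, 18 equalled the host and 5, among them Snora70 in Rpl10, were at 0.50 of it.

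**Figure D3:**
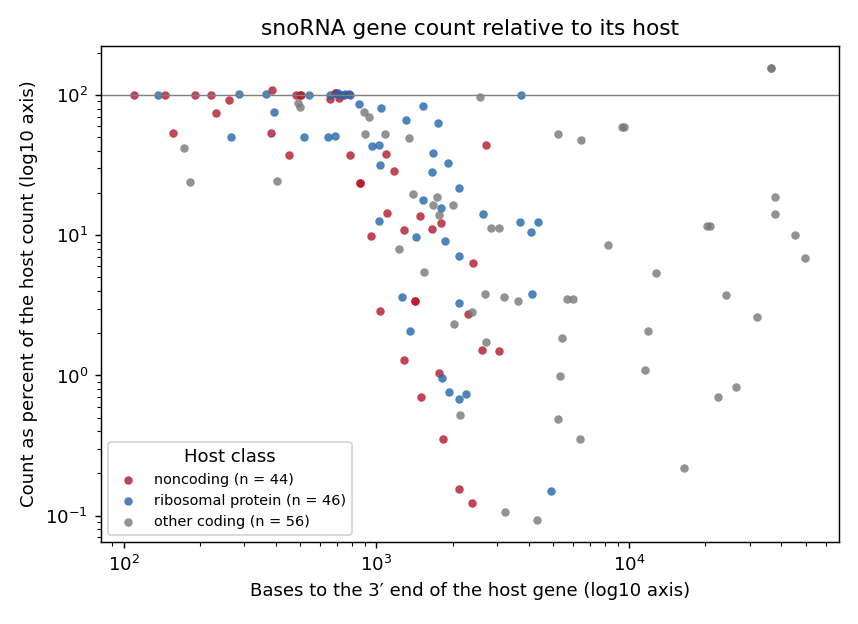
Count of each snoRNA gene as a percent of its host's count, against the distance from the snoRNA gene to the 3′ end of the host (both log10 axes), for the 146 members whose host has a mean of at least 10. Points at most 1000 bases from the end centre on 92.3%, and those at 1000 to 5000 bases on 10.1%.

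The same order held inside hosts with several members. In the 17 hosts with at least 3 members, the member nearer the end was at least as high as the farther one in 123 of 135 pairs of loci. In Gas5 this held for 36 of 36 pairs, from Gm25789 with a mean of 1149 at 156 bases to Gm26224 with 32.0 at 3066 bases. In Snhg1 it held for 27 of 28, from Snord22 with 5366 at 452 bases to Gm25855 with 17.8 at 2379 bases. In Rpl13a the means fell from 5180 for Snord35a at 788 bases to 49.5 for Snord32a at 1824 bases. Eif4a2 was an exception, with 2 of 6 pairs in that order. Every pair was in that order in 8 of the 17 hosts, and 15 of the 17 had at least 3 loci. Gas5, Snhg1 and Taf1d gave 36, 28 and 21 of the 135 pairs, and pairs that share a locus are not independent.

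**Figure D4:**
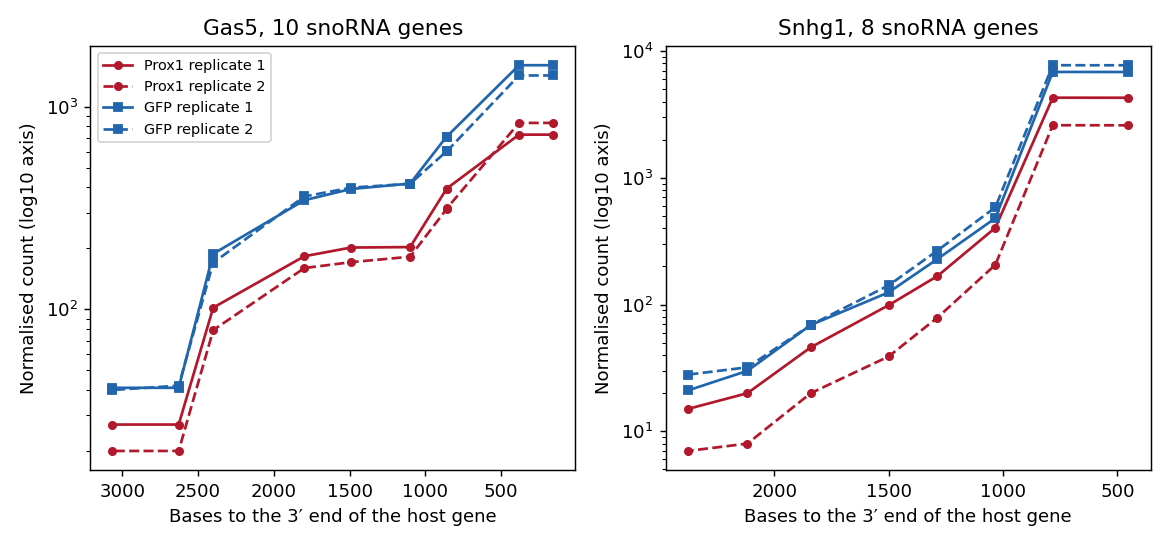
Normalised counts (log10 axis) of the 10 snoRNA genes in Gas5 and the 8 in Snhg1 against their distance to the 3′ end of the host, with a line for each library. Counts climb toward the end in all 4 libraries, and both Prox1 lines lie below both GFP lines at every gene.

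The change of a snoRNA gene also lay closer to that of its host near the end. For members at most 1000 bases away, the log2 difference of the snoRNA gene and of the host differed by a median of 0.017, and 45 of 47 were within 0.2 of each other (r = 0.99). At 1000 to 5000 bases the median was 0.18, 38 of 72 were within 0.2, and r was 0.78. Beyond 5000 bases, over the 27 members whose host has a mean of at least 10, the median was 0.54, 3 were within 0.2, and r was 0.18. These correlations are over snoRNA genes that share libraries and often a host, and for many the snoRNA gene and its host have the same counts. Members farther from the end also had lower counts relative to their host. The part of count level in the wider gaps and lower r was not tested. Over all 146 pairs the median of member minus host was 0.00087.

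**Figure D5:**
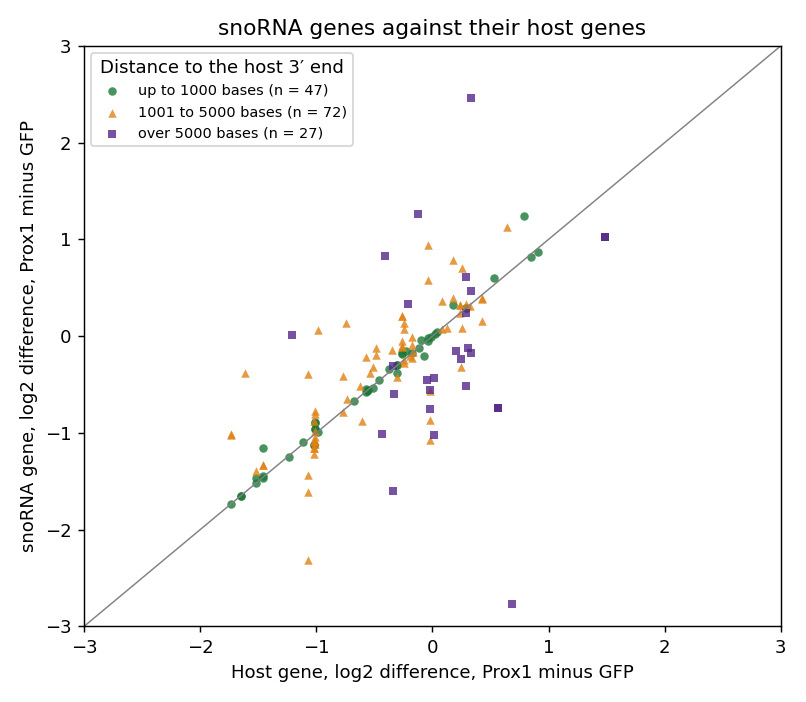
Log2 difference (Prox1 minus GFP) of each snoRNA gene against that of its host gene for 146 pairs, with symbols for the distance to the host's 3′ end and a line of equality. The 47 pairs at most 1000 bases from the end lie close to the line, and the 27 beyond 5000 bases scatter.

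Of the 40 called members, 32 had a host, and for 26 of these the host was called in the same direction. Of the 40, 17 lay at most 1000 bases from the host's end, where members often had the host's own counts. A call shared with the host is therefore often not a separate measurement. Of the 108 members in hosts that were not called, 3 fell and 3 rose. Of the 42 members in hosts that fell, 25 fell and 39 were lower. Over all genes tested 8.41% fell and 7.57% rose.

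Counts of neighbouring snoRNA genes were often not separate measurements. Values matched within 1% or 1 count in every library for 32 members in 16 pairs, which left 161 distinct sets of values, of which 29 fell and 6 rose. In 7 pairs the 2 genes were annotated at the same place. The other 9 pairs, among them Snord42a with Snord4a in Rpl23a and Snord50a with Snord50b, were 98 to 322 bases apart, and their longest shared sequence was 6 to 49 bases. The authors' deposited table divides the counts of all 177 snoRNA genes by 1 length, 1254 bases, although the genes are 35 to 216 bases long. How reads were assigned to these genes is not given in the sources used here, so reads of a snoRNA and reads of the transcript that spans it cannot be told apart.

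Outside the noncoding class, Gm26447 in Eif4a2 was the single called member of a host with at least 3 members. In Rpl13a, Snord34 (4259 and 3764 against 3305 and 5539), Snord33 (3742 and 3083 against 2639 and 4407) and Snord32a (43 and 46 against 39 and 70) overlapped between groups. In Rpl23a, Snord42a and Snord4a each had 4133 and 3642 against 4043 and 5618, and Snord42b 122 and 113 against 205 and 122. In Hspa8, which holds the U14 genes used in processing of the small subunit RNA, Snord14e had 2645 and 2840 against 2300 and 2336, Snord14d 174 and 215 against 198 and 80, and Snord14c 11 and 15 against 29 and 12. None of these passed, with limma adjusted p from 0.263 to 0.991.

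In Taf1d, a subunit of the RNA polymerase I factor SL1, the 7 members had log2 differences from -0.18 to 0.21. In Rpl5, Gm26387 had 4167 and 3994 against 3881 and 3085, and Snord21 and Gm22270 were at log2 differences of 0.32 and 0.33. In Rpl17, Gm26202, Gm23301 and Snord58b were at 0.39, 0.38 and 0.16. In Eef1b2, Gm26457 was listed at 2 annotations with log2 differences of 0.07 and 0.13. In Nop56, Snord57 had 57 and 16 against 78 and 54, and Gm23650 and Gm23187 had log2 differences of -0.87 and -0.57. In Eif4a2, Snora81 (42 and 2 against 42 and 21) and Gm24201 (42 and 1 against 37 and 20) rested on a Prox1 group whose libraries differed widely. None of these members passed.

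The proteins that assemble with snoRNAs were read from lists of their genes. Over all genes tested 8.41% fell and 7.57% rose, so lists this short would hold few calls at that share. In the C/D core (Fbl, Nop56, Nop58 and Nhp2l1) 0 of 4 were called, and the median log2 difference was 0.05. Fbl, the methyltransferase fibrillarin, had 576 and 851 counts against 949 and 1638 (limma adjusted p = 0.0588). In the H/ACA core (Dkc1, Nop10, Nhp2 and Gar1) 1 of 4 fell and 0 rose, with a median of -0.28. That gene was Nhp2, which binds the H/ACA hairpins, with 388 and 341 against 650 and 723 (limma adjusted p = 0.0122). Dkc1, the pseudouridine synthase dyskerin, had 276 and 215 against 241 and 243.

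Among 9 assembly factors and 13 genes of the U3 processome 0 were called, where 16% of all genes tested were called in either direction. Of 10 nucleolar and Cajal body genes 1 rose, the RNA polymerase I factor Rrn3 (738 and 930 against 456 and 486, limma adjusted p = 0.0222). Of 12 processing and decay genes 1 rose, the cap-binding subunit Ncbp2 (666 and 487 against 276 and 279, limma adjusted p = 0.0095). The median log2 differences of these 4 lists were 0.25, 0.22, -0.02 and 0.39.

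Other RNA classes were called at these counts, where 7.57% of all genes tested rose and 8.41% fell. Of 5 nuclear-retained long RNAs, 2 fell, Meg3 (32 and 28 against 157 and 173) and Rian (7 and 16 against 68 and 65), both from an imprinted cluster that also holds C/D snoRNA genes. Of 45 genes for spliceosomal small RNAs, 6 rose and 4 fell. Of 147 microRNA genes 12 rose and 18 fell, with a median log2 difference of -0.18, and of 5 small Cajal body RNA genes 0 were called, with a median of -0.90.

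As a check of the labels, the gene Prox1 itself had 1304 and 2505 counts in its own libraries against 2 and 3 with GFP. Libraries summed to 6798014 to 7683100 normalised counts. Of 11 noradrenergic neuroblastoma markers, all tested, 8 fell and 1 rose, and their summed counts were 6950 and 6309 in the Prox1 libraries against 12684 and 12157. Their part in the snoRNA results was not tested. Markers of fibroblasts (6 genes, sums 2 to 38), leukocytes (5 genes, 0 to 5), endothelium (4 genes, 2 to 18) and hepatocytes (3 genes, 0 to 63) were low. Ptprc, Adgre1, Cd3e, Csf1r, Col3a1, Lum, Cdh5 and Ttr were at 0 throughout. The largest counts were 62 for Alb in Prox1 replicate 2 and 36 for Pdgfra in Prox1 replicate 1, and neither gene was called.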

How the data were processed

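RNA of 2 Prox1 and 2 GFP libraries was measured, grouped by title. Per the file headers, the deposited table of all genes gives the log2 of a normalised count plus 1. Reversed to linear scale, 100% of values were whole (relative deviation up to 3.47e-09), so the counts were rounded after normalisation and no count model was used. The table also holds a deposited signal (count over gene length) and the authors' log2 fold change and p-values for 11933 genes, none of them snoRNA. DESeq and mm10 are named in the submitters' processing notes; aligner, counter, strand use, annotation release and reads per library are unstated there. The remaining sheets repeat these values and were not used here.

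log2(normalised count + 1) was tested with limma 3.58.1 (R 4.3.3; lmFit, then eBayes with a mean-variance trend), Prox1 against GFP, over 13290 genes whose counts averaged 10 or more. P-values are two-sided and Benjamini-Hochberg adjusted, with 0.05 as threshold. The scale understates the change of low genes, so ratios of mean normalised counts are given beside it. The fit was tested on simulated data. Alternatives used TMM scaling (computed directly), cyclic loess, other filters and pseudocounts, vooma weights, no trend, the replicate number as a block, and each library left out.

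A host was the protein-coding or long noncoding gene overlapping on the same strand with the highest mean; 10 members had more than 1 candidate. All 177 members' coordinates matched GENCODE M21 by ID, which gave exons, introns and sequences. Overlapping genes share reads, and strand use is unknown. Members, lists and tests were chosen with earlier results of these data known. Named were the 25 largest called changes, the 4 highest members of each type and the largest rises and falls by type, all members of hosts with at least 3, the nearest genes at the limit, and hosts of these; the 100 members of neither symbol were otherwise given as counts. Other called members, Snord60, Snord87, Gm22748, U3, U8 and Snora70 were picked after their values were seen. A few named genes and 1 list are not reported here.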

Additional observations from a re-analysis of the deposited data

How the results depend on the processing

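All 55 called genes among the 134 named kept their direction under every alternative, and 0 reversed; 30 uncalled genes changed sign under at least 1 setting, 5 of them with all 4 libraries kept. TMM, cyclic loess, pseudocounts of 0.5 and 5, a mean of at least 50 and vooma weights left 34 to 38 snoRNA genes that fell and 6 to 8 that rose, and all 25 falls in noncoding hosts were still called. With the replicate number as a block, 42 fell and 8 rose, of 2528 genes called against 2124, and 7 H/ACA members fell in place of 4. Replicate differences of the Prox1 and GFP groups were not correlated over genes (r = -0.05). With a single such difference per group, this cannot settle whether same-numbered libraries were handled together. Without the variance trend 1057 genes were called, with 16 snoRNA falls and 3 rises; C/D members gave 4 falls and 0 rises, H/ACA members 1 and 0, and the protein and RNA lists 2 calls in place of 6. Without a filter on low values, 0 genes and 0 members were called in limma, with 5032 genes and 56 members at an unadjusted p under 0.05. The authors' deposited table has 551 genes at an adjusted p under 0.05. With a library left out, 0 genes were called in every count, with 2365 to 2981 genes at an unadjusted p under 0.05, and called members had adjusted p from 0.142 to 0.43; this leaves 1 residual degree of freedom, and the lone library is assumed to vary like the other group. The median log2 difference then ranged from -0.43 to -0.19 over all members, from -0.53 to -0.25 for C/D, from -0.63 to -0.13 for H/ACA and from -0.39 to -0.17 for other symbols. It ranged from -1.19 to -0.76 for members in noncoding hosts, the smallest without Prox1 replicate 2. For members of neither symbol the median was -0.22 with a mean of at least 20 and -0.18 with at least 50, against -0.31. The share of the library, Prox1 minus GFP, was -0.46 percentage points, -0.53 without the largest member, -0.45 with each set of equal values counted once (chosen after seeing the data), and -0.64 to -0.27 with a library left out. The median of snoRNA minus host was 0.00695 with a pseudocount of 5 and 0 to 0.0123 with a library left out.

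Depth in reads is unknown, so low members carry no interval; 63 members have means under 50, and 2 libraries a group limit every call.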
